A study of Mus musculus with 32 samples.

Results

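The genes described here encode the collagens, the laminins and the integrins of the mouse: 80 genes of 38740 gene symbols in the expression table, picked by a rule on their symbols. The choice was made with earlier results of these data known. They were 44 collagen chains, 11 laminin chains and 25 integrin subunits, and Itgam was left out by the rule. The tissue was the subventricular zone of the forebrain at postnatal day 21, a neurogenic region beside the lateral ventricle, and total RNA was sequenced. Each of 28 libraries came from a single cell, and each of the other 4 from a pool of 10 cells. The labels named no strain, sex, genotype, treatment, sort or animal for any library. The 28 cells therefore stood as 1 sample of cells, the pools had no counterpart group, and no p-value was made. Nothing says that the pools came from separate animals, so their spread may be technical.

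Collagens are secreted proteins built of 3 chains wound together. Type IV collagen forms the sheet of the basement membrane, and other types form fibrils or attach to them. Laminins are cross-shaped trimers of an α, a β and a γ chain that polymerise on the cell surface and, with type IV collagen, make up the basement membrane. Integrins are receptors of an α and a β subunit that bind such matrix proteins outside the cell and connect to the actin skeleton inside it. In the subventricular zone the basement membranes surround blood vessels and reach as branches to the ependymal wall, and neural stem cells are known to contact them.

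Values were FPKM (fragments mapped to a gene, per kilobase of its length and per 1000000 fragments of the library), a level per length, so levels of different genes were set side by side. A gene was called found in a library at FPKM of at least 1. The depth of 28 of the 32 libraries could be read from the size of a single fragment's contribution, at roughly 6.31 to 47.9 times 1000000 fragments (median 15.8). At the median depth, FPKM of 1 over the members' median exon length of 7122 bp came to about 113 fragments, an overestimate where a cell used a shorter transcript. Single cells had 2107 to 10169 genes found (median 4986), and pools had 11939 ± 1041 (SD, n = 4).

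Each library was read by 9 lists of cell type markers that held no member, and it was called led by the list with the highest mean log2(FPKM + 1). Endothelial markers led 8 cells (1, 2, 3, 6, 7, 8, 16 and 17), each with 9 to 12 of the 12 markers found against 0 to 4 in the other 20 cells. Oligodendrocyte markers led cells 4, 12 and 13, astrocyte markers cells 11 and 14, ependymal markers cells 9, 10 and 15, and choroid plexus markers cell 5. Microglial markers led cells 18 to 21, and neuroblast markers led cells 22 to 28. Cell 3 also had 8 of 10 microglial markers. In cells 18 to 22 these lists were mixed: cell 21 had 10 of 10 microglial and 8 of 11 neuroblast markers (means of 5.13 and 4.94), cell 22 had 9 of 10 microglial markers, and cell 19 had 8 of 11 neuroblast markers. The pools were mixtures: choroid plexus markers led pool 1, endothelial markers pools 2 and 3, and oligodendrocyte markers pool 4. No list of pericyte and smooth muscle markers or of fibroblast markers led any library, and no cell had more than 3 of either.

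Cells 18 to 22 and cells 23 to 28 stood apart as 2 sets of libraries. Of 611 genes that reached FPKM of 500 in 1 cell of the first set and stayed under 5% of that in its other cells, the low values were above 0 in 98.7%, at a median of 0.336% of the highest. In the second set 662 such genes were above 0 in 97.6% of the low values, and in cells 1 to 17 the share was 15.1% over 140 genes. All microglial and neuroblast-led cells lay in these sets and no other cells did, so cell type and library set cannot be told apart there. Each count of cells is therefore also given after setting to 0 each level below 2% of that gene's maximum within the set (the 2% limit), or without cells 18 to 28, where it changed. With that limit cell 21 was led by neuroblast markers in place of microglial ones.

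Type IV collagen genes lie head to head in pairs that share the sequence between their start sites. In GRCm38, Col4a1 (ENSMUSG00000031502, chr8:11198423-11312826, minus strand) and Col4a2 (ENSMUSG00000031503, chr8:11312805-11449287, plus strand) had start sites at 11312826 and 11312805, and their first exons overlapped by 22 bases. Col4a4 on the minus strand and Col4a3 on the plus strand of chromosome 1 started 71 bases apart. Col4a6 and Col4a5 on chromosome X started 1308 bases apart. The RefSeq windows from 250 bases before to 50 bases after the start (GRCm38.p6) are printed for Col4a1 and Col4a2, which were found together in endothelial-led cells (below), and for Col4a4, which was found in 1 cell. Each is read 5′ to 3′ on its gene's own strand. Capitals mark the 78 bases common to the Col4a1 and Col4a2 windows, which appear as reverse complements, and in Col4a4 the 71 bases between its start and that of Col4a3. The windows are chr8:11312777-11313076 (minus), chr8:11312555-11312854 (plus) and chr1:82586800-82587099 (minus).

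Col4a1: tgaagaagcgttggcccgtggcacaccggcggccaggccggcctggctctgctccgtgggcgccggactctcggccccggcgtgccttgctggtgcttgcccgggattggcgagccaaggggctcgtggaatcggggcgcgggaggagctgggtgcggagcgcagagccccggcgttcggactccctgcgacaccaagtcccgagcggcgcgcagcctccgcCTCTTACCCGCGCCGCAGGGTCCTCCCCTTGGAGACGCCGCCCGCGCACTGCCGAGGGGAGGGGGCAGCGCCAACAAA

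Col4a2: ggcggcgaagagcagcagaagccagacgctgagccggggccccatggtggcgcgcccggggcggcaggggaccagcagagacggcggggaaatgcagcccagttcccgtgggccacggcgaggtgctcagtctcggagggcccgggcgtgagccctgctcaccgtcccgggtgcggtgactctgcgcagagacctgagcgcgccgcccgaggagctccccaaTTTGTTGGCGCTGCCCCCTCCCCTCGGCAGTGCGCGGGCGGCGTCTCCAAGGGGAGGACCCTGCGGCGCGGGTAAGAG

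Col4a4: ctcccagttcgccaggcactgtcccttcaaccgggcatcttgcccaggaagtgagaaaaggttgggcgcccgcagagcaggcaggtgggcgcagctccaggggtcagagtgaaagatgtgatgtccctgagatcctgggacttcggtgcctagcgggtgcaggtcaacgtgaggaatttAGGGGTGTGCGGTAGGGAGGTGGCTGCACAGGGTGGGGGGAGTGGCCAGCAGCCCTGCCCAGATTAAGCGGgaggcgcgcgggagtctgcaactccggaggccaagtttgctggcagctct

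The windows of Col4a1 and Col4a2 were 74% and 73.7% G or C, against a median of 52.7% over all windows. The GC box (GGGCGG, either strand) occurred once in the Col4a1 window and 3 times in that of Col4a2, with 1 match in the shared bases. It occurred in 35.7% of all 32851 windows of this length and in 34 (54%) of the 63 windows of the 57 members that had one. CCAAT occurred once in each of the 2 windows, in 37.4% of all windows and in 27% of the member windows. The Col4a4 window held neither but held 1 ETS core (AGGAAG, 35.4% of all windows and 41.3% of the member windows). TATAAA (13.6% of all windows and 7.94% of the member windows) was in none of the 3. No match overlapped another, and a match is a description of the letters only.

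Of the 80 genes, 56 reached FPKM of 1 in at least 1 of the 32 libraries: 25 of 44 collagens, 9 of 11 laminins and 22 of 25 integrins. In single cells 51 were found (63.8%), against 48.7% of all symbols. Most were found in few cells. Of the 51, 12 were found in exactly 1 cell (23.5%, against 16.6% of all genes found in a cell), and the median was 3 cells, against 6 over all genes. Only 3 members were found in at least 14 cells (5.88%, against 18.9%): the integrin subunits Itgb1 in 22 cells, Itgb5 in 15 and Itga6 in 14. With the 2% limit 13 members were found in exactly 1 cell, only Itgb1 in at least 14, and the median was 2 cells. Listed at 0 in all 32 libraries were 13 members, among them Col15a1, a collagen of vascular basement membranes, and Lamb3, a laminin chain of epithelial basement membranes. In this table an exact 0 can be a failed estimate. Another 11 members stayed between 0 and 1 everywhere: Col4a6, Col5a3, Col6a1, Col6a4, Col7a1, Col9a1, Col9a2, Col12a1, Col22a1, Col25a1 and Itga8.

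**Figure D1:**
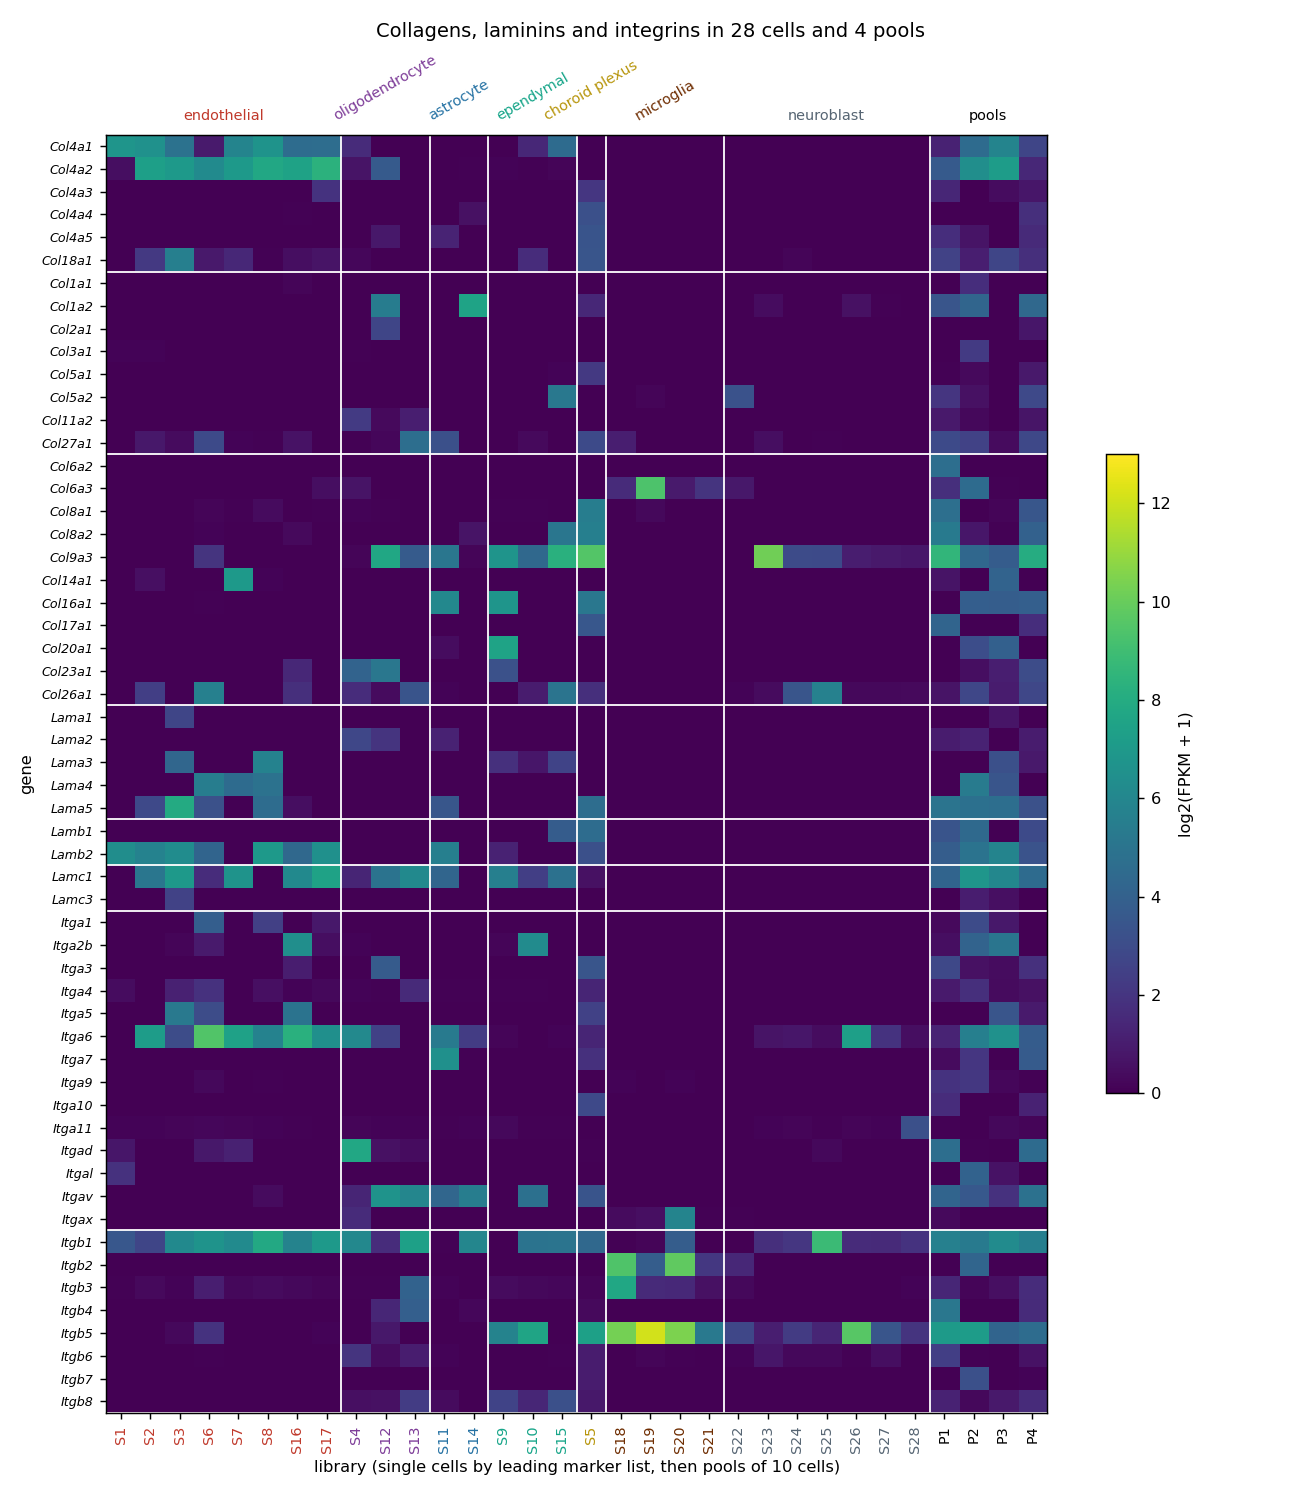
Log2(FPKM + 1) of the 56 members found in at least 1 library (lines, by class) in 28 single cells ordered by leading marker list and 4 pools (columns). Col4a1, Col4a2 and Lamb2 are high in most of the endothelial columns, no laminin is found in cells 18 to 28, and the pools show 19 to 31 members each.

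A single cell carried few of these genes at once. The median cell had 2.5 collagens (range 0 to 13), 1 laminin (0 to 6) and 3 integrins (2 to 9). In pools the counts were 12.3 ± 3.10 collagens, 5 ± 1.4 laminins and 10.3 ± 2.87 integrins (SD, n = 4), and each pool had more collagens than any cell other than cell 5. Cells 1 to 17 had medians of 4 collagens, 2 laminins and 3 integrins. Cells 18 to 28 had medians of 1 collagen and 3 integrins and no laminin in any of the 11 cells. With the 2% limit their median was 1 integrin (0 to 4). In cells 18 to 28, 12 of the 51 members were found (23.5%), against 55.9% of all genes found in a cell. Genes found per cell moved with this, at a median of 5932 in cells 1 to 17 and 3466 in cells 18 to 28, and its part in the counts was not tested.

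**Figure D2:**
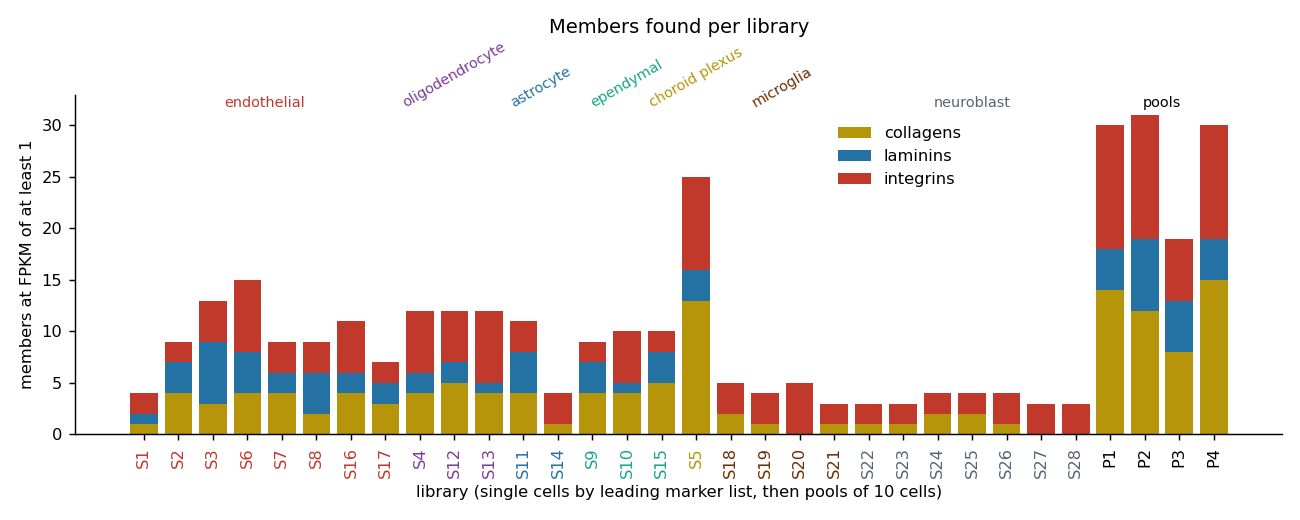
Number of collagens, laminins and integrins at FPKM of at least 1 in each library, stacked, with cells ordered by leading marker list. Cell 5 has 25 members and cell 6, the next highest cell, has 15, and cells 18 to 28 have 3 to 5 each with no laminin (0 to 4 with the 2% limit, which is not drawn).

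By a margin of at least 50 percentage points, 4 members were found more often in the 8 endothelial-led cells than in the other 20: Col4a1, Col4a2, Lamb2 and Itga6. That is 4 of 51 members found in a cell (7.84%), against 3.28% of all 18856 genes found in a cell. Only Itgb5 was found less often by that margin, 1 of 51 (1.96%) against 1.62% of all genes. Against the other 9 cells of cells 1 to 17 alone, the margin was 54.2 points for Col4a1, 76.4 for Col4a2 and 54.2 for Lamb2, and 31.9 for Itga6. That left 3 of 48 members, against 2.14% of all genes. In that comparison Itgav and Col9a3 were found less often, at -77.8 and -65.3 points, 2 of 48 members against 6.71% of all genes. Itgav was counted among the 48 through the other cells alone. The endothelial-led cells had a median of 5397 genes found and those 9 cells 6962. Without cell 3 the counts were again 2 collagens, 1 laminin and 1 integrin.

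**Figure D3:**
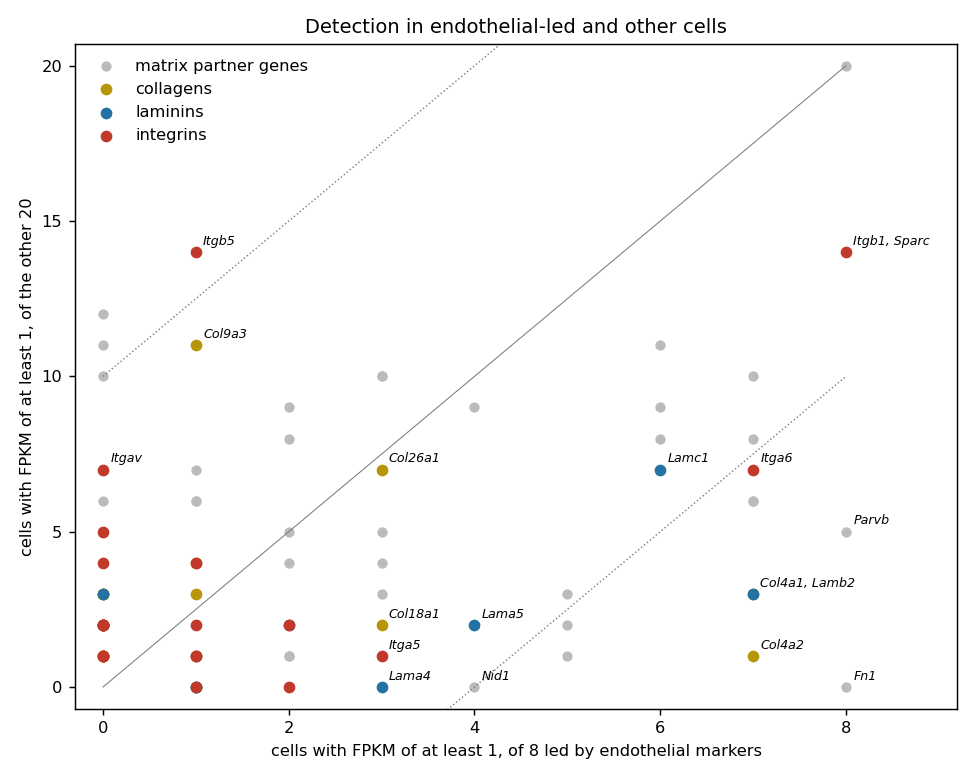
Cells with FPKM of at least 1 among the 8 endothelial-led cells (x) and the other 20 cells (y), 1 point per gene for the members and, in grey, for genes of the matrix partner lists, with the equal-share line and dotted lines at 50 percentage points. Col4a2 lies at 7 and 1, Col4a1 and Lamb2 at 7 and 3, Fn1 at 8 and 0, and Itgb5 at 1 and 14.

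Col4a1 and Col4a2 encode the chains of the common type IV collagen network. Col4a2 was found in 8 cells, 28.6% of 28 (exact Clopper-Pearson 95% interval 13.2% to 48.7%, which covers counting error only). In the endothelial-led cells its lowest level was 0.378 (cell 1), its median 145 and its highest 327 FPKM (cell 17). Outside them it was found only in cell 12, at 11.9. So 7 of 8 endothelial-led cells lay above every other cell, and cell 1 was the exception.

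Col4a1 was found in 10 cells. Its endothelial-led cells ran from 0.900 (cell 6) through a median of 42.7 to 108 FPKM (cell 1), and the highest other cell was cell 15, ependymal-led, at 22.7. Cell 1 was the highest cell for Col4a1 yet had Col4a2 below 1, and cell 6 had Col4a2 at 74.0 without reaching 1 for Col4a1. Of the 12 cells with either chain, 6 had both, which is 21.4% of the 28 cells (interval 8.30% to 41.0%), and all 6 were endothelial-led. Cells 4, 10 and 15 had Col4a1 alone, cell 12 had Col4a2 alone, and cells 1 and 6 divided as described. This split depends on the limit for found. With FPKM of at least 0.1 as found, 10 cells had both chains, among them cells 1 and 6. Cells 4 and 15, not endothelial-led, were also among them, with Col4a2 at 0.597 and 0.112. In the pools Col4a1 was 1.40, 22.6, 58.2 and 5.53 FPKM in pools 1 to 4, and Col4a2 was 11.7, 84.7, 144 and 1.72. Pools 2 and 3, led by endothelial markers, were the highest for both genes. In such bulk pools, fewer cells of a type and less RNA per cell cannot be told apart.

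The remaining type IV chains were rare. Col4a3, Col4a4 and Col4a5 form the network of specialised basement membranes such as that of the kidney glomerulus. All 3 were found in cell 5, led by choroid plexus markers, at 3.23, 8.08 and 9.23 FPKM. Outside it Col4a4 was found in no cell, Col4a3 only in cell 17 (2.79) and Col4a5 only in cell 11 (1.49). Pool 1 had Col4a3 at 1.67 and Col4a5 at 2.22, and pool 4 had Col4a4 at 2.33 and Col4a5 at 1.88. Choroid plexus markers were strong in the same pools: 8 of 8 were found in pools 1 and 4 and 3 to 4 in pools 2 and 3. Their part in these levels was not tested.

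Col18a1, the basement membrane collagen whose end fragment is endostatin, was found in 5 cells. It stood at 48.2 FPKM in cell 3, 9.80 in cell 5, 3.53 in cell 2, 2.12 in cell 10 and 1.71 in cell 7. Cells 2, 3 and 7 are endothelial-led. It was found in all 4 pools, at 4.83, 1.11, 5.67 and 2.41 in pools 1 to 4, so no pool was far from the rest.

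**Figure D4:**
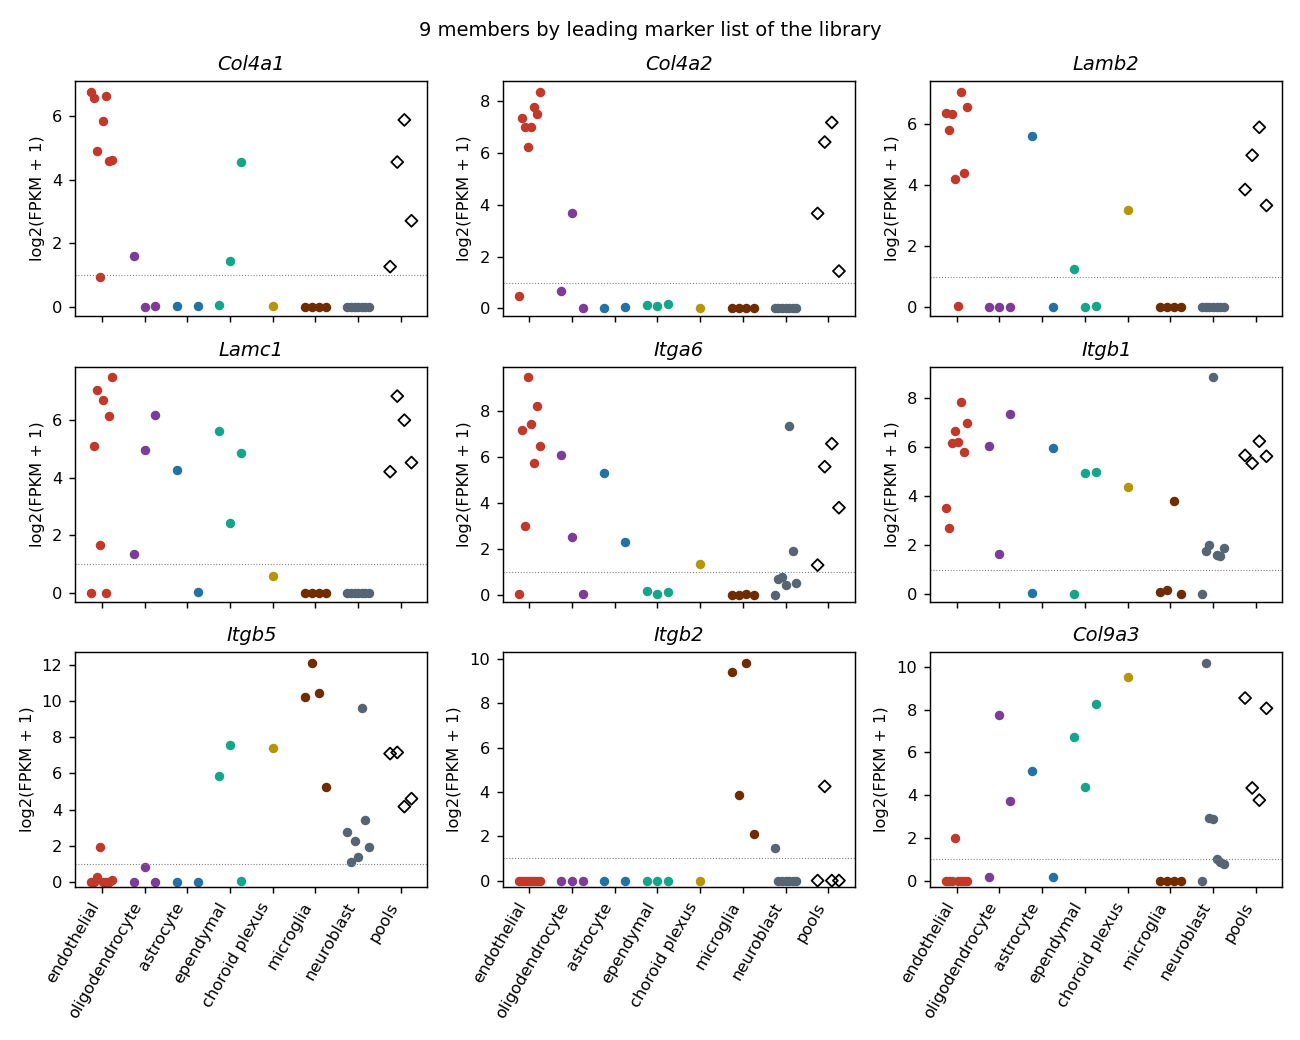
Log2(FPKM + 1) of 9 members in each single cell, grouped by leading marker list, and in the 4 pools (open diamonds), with a dotted line at FPKM of 1. Col4a2 reaches 327 FPKM and Lamb2 131 in endothelial-led cells, Itgb2 and Itgb5 peak in microglia-led cells, and Itgb1 appears in every endothelial-led cell.

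Of 11 fibril-forming collagens, 8 reached FPKM of 1 in a library and 6 did so in a cell. Type I and III collagen chains, the main fibrils of connective tissue, were scarce. Col1a1 and Col3a1 were found in no cell, and a count of 0 allows up to 3 of 28 cells (10.7%). Both were found only in pool 2, at 2.22 and 3.66 FPKM. That pool also had the fibroblast markers Dcn at 17.9 and Lum at 2.10, which were found in no cell and in no other pool, and 4 of 8 fibroblast markers against 2 to 5 in the other pools. The part of fibroblast RNA in these levels was not tested.

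Col1a2, the partner chain of Col1a1, behaved differently. It reached 187 FPKM in cell 14 (astrocyte-led), 43.6 in cell 12 (oligodendrocyte-led) and 1.76 in cell 5. The pools had 9.70, 18.1, 0 and 19.8. Cell 14, with the highest level, had 0 of 8 fibroblast markers found, with Dcn and Lum listed at 0. It had 1 of 10 pericyte and smooth muscle markers, Vtn at 224, with Pdgfrb listed at 0. Pool 2 was the only library with both chains of type I collagen.

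Col27a1, a fibrillar collagen of cartilage, was the fibril-forming chain found in most cells: 25.4 FPKM in cell 13, 8.01 in cell 11, 6.55 in cell 5, 6.46 in cell 6 and 1.15 in cell 18. Pools 1, 2 and 4 held 4.88 to 6.68 and pool 3 held 0.283. Col5a2, a chain that regulates fibril width, was found in cells 15 (36.4) and 22 (8.59) and in pools 1 and 4 (3.02 and 6.40). Col11a2 was found in cells 4 (3.56) and 13 (1.10), Col2a1, the main cartilage collagen, in cell 12 alone (5.48), and Col5a1 in cell 5 alone (3.45).

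The most abundant collagen was Col9a3, a chain of the fibril-associated type IX collagen. It was found in 12 cells, and 8 of them were above 10 FPKM: 1158 in cell 23 (neuroblast-led), 741 in cell 5, 304 in cell 15, 215 in cell 12, 104 in cell 9, 33.7 in cell 11, 19.8 in cell 10 and 12.1 in cell 13. Every one of the 3 ependymal-led cells had it. Of the endothelial-led cells, only cell 6 did, at 2.94. The 2% limit left 9 cells, since cells 24, 25 and 26 (1.03 to 6.76) share a library set with cell 23. Pools 1 and 4 stood at 371 and 266 and pools 2 and 3 at 19.2 and 12.6, and pools 1 and 4 were those with 8 of 8 choroid plexus markers. Pools 1 and 4 also had the most oligodendrocyte markers, 9 and 10 of 10, against 8 and 3 in pools 2 and 3. The part of either cell type in these levels was not tested. The partner chains of Col9a3, Col9a1 and Col9a2, were found in no library, so no cell had all 3 chains. The exons of Col9a3 overlap those of Tcfl5 on the opposite strand over 6.07% of their length, and the strand setting of the counting is not given in the sources used here.

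Col26a1 was found in 10 cells, from 1.02 FPKM in cell 10 to 51.0 in cell 25. Cells 6 (49.3) and 15 (30.8) followed, and the pools had 0.594 to 5.89. These cells were led by 5 different marker lists, so the gene followed no single list. Col23a1, a transmembrane collagen, was found in cells 12 (34.8), 4 (16.8), 9 (8.29) and 16 (1.69). Col16a1, a fibril-associated collagen, was found in cells 9 (108), 11 (66.0) and 5 (34.6) and in pools 2 to 4 at 13.3 to 14.3.

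Several of the other collagens were seen in 1 cell at a high level. Col20a1 was at 183 FPKM in cell 9 and Col14a1 at 130 in cell 7, and in no other cell. Col8a1 and Col8a2, the short-chain network collagens, and Col17a1, a collagen of hemidesmosomes, were at 44.1, 47.3 and 10.4 in cell 5. Besides cell 5, Col8a2 was found in cell 15 (32.9). The 3 genes were found in pools 1 and 4, at 25.5 and 10.2 for Col8a1, 39.1 and 15.4 for Col8a2 and 17.4 and 2.27 for Col17a1. None of them was found in pools 2 or 3.

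Type VI collagen, a beaded filament of 3 different chains, was never complete in a library. Col6a1 was below 1 in all of them. Col6a2 was found in pool 1 alone, at 25.1 FPKM. Pool 1 also had the smooth muscle markers Myh11 at 52.4, Tagln at 37.3 and Acta2 at 1159, the highest level of each in any library. Of the whole list of 10 pericyte and smooth muscle markers, pools 1 to 4 had 7, 8, 2 and 4. Pool 1 was above pool 2 for these 3 and Cspg4. Pool 2 was above pool 1 for Pdgfrb, Rgs5, Kcnj8, Abcc9, Anpep and Vtn. The part of such cells in the level of Col6a2 was not tested. Col6a3 was at 663 in cell 19 (microglia-led) and at 1.98 and 2.92 in cells 18 and 21 of the same library set, which the 2% limit removed. Pools 1 and 2 had Col6a3 at 2.31 and 22.7.

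Laminin α chains carry the domains that bind cell receptors, and each was found in a cell. Lama5, the widespread α chain of mature vessels and epithelia, was at 243 FPKM in cell 3, 23.9 in cell 5, 23.5 in cell 8, 10.1 in cell 11, 8.36 in cell 6 and 6.29 in cell 2. Cells 2, 3, 6 and 8 are endothelial-led. The pools had 30.8, 26.4, 24.5 and 8.31, all within the range of the cells. Lama4, the α chain typical of endothelium, was found only in endothelial-led cells 6 (44.8), 8 (29.2) and 7 (22.3). In pools it was found at 42.0 in pool 2 and 9.76 in pool 3, the pools led by endothelial markers, and was listed at 0 in pools 1 and 4.

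Lama2, the α chain of muscle and of vessels toward the brain tissue, was found in cells 4 (5.84), 12 (2.85) and 11 (1.34), none of them endothelial-led, and in pool 2 at 1.38. Lama3, the α chain of epithelial anchoring membranes, was at 53.9 in cell 8, 18.3 in cell 3, 5.05 in cell 15 and 2.43 in cell 9. Lama1, the α chain of early embryonic membranes, was found in cell 3 alone (5.49) and in no pool. Cell 3 thus had 3 of the 5 α chains.

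Lamb2 (ENSMUSG00000052911, chr9:108479862-108490530) was the leading β chain, found in 10 cells. In the endothelial-led cells it ran from 0.0231 (cell 7) through a median of 66.1 to 131 FPKM (cell 8). In the other cells the highest was 47.6 in cell 11 (astrocyte-led), followed by 8.01 in cell 5 and 1.38 in cell 9. The endothelial-led cells were mostly above the rest, but cells 6 and 16, at 17.3 and 19.9, lay below cell 11. Cell 7 lay below cells 11, 5 and 9. The pools had 13.4, 30.4, 58.1 and 9.04, highest in pools 2 and 3. Lamb1, the other common β chain, was found only in cells 5 (23.1) and 15 (12.8), but in pools 1, 2 and 4 at 9.26, 20.6 and 6.50.

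Lamc1 (ENSMUSG00000026478, chr1:153218922-153332786), the γ chain of most laminins, was the laminin found in most cells, 13 of 28. Endothelial-led cells 17, 3, 7, 16 and 2 had 177, 129, 102, 69.8 and 33.5 FPKM, cell 6 had 2.19, and cells 1 and 8 did not reach 1. Among the others it was found in 7 of 9 cells of cells 1 to 17, at 1.58 (cell 4) to 70.5 (cell 13). So its higher share in endothelial-led cells, 6 of 8 against 7 of 20, was gone against cells 1 to 17, at -2.78 percentage points. All 4 pools had it, at 17.5, 113, 62.7 and 22. Lamc3 was found in cell 3 (4.87) and pool 2 (1.06).

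At least 1 laminin was found in 16 cells, and an α, a β and a γ chain together in 6 of them: cells 2, 3, 6, 9, 11 and 15. The set Lama5, Lamb2 and Lamc1 was complete in cells 2, 3, 6 and 11 (14.3%, interval 4.03% to 32.7%). Lama2, Lamb2 and Lamc1 were complete in cell 11 alone. No cell had Lamb1 and Lamc1 with Lama2, Lama4 or Lama5, and a count of 0 again allows up to 10.7% of cells for each. In contrast all 4 pools had Lama5, Lamb2 and Lamc1, and pool 2 had each of the 5 trimers examined. Cells 10, 13, 16 and 17 had a γ chain and no α chain.

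Itgb1 (ENSMUSG00000025809, chr8:128685654-128733200), the β subunit shared by most matrix-binding integrins, was the member found in most cells: 22 of 28 (78.6%, interval 59.0% to 91.7%). All 8 endothelial-led cells had it, from 5.60 (cell 2) through a median of 72.5 to 228 FPKM (cell 8). Of the other 20 cells 14 had it, with its highest level, 461, in cell 25. The 2% limit removed cells 23, 24, 26, 27 and 28 (1.96 to 3.10), which share a library set with cell 25, and left 17 cells. With the limit, Itgb1 also passed the 50-point margin for endothelial-led cells, at 55 points, as 1 of 5 members. The same margin with the limit was passed by 3.85% of all genes. In the pools Itgb1 was 49.9, 39.7, 75 and 48.6, the narrowest spread among the named members found in a library (SD of the log2 ratio 0.38).

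Itga6 (ENSMUSG00000027111, chr2:71745616-71858416), the α subunit of laminin receptors, was found in 14 cells. In the endothelial-led cells it ran from 0.0284 (cell 1) through a median of 115 to 713 FPKM (cell 6). Among the other cells it was 161 in cell 26, 67.5 in cell 4 and 38.6 in cell 11, and 1.57 to 4.72 in cells 5, 12, 14 and 27. The groups overlapped, since cells 1 and 3 (7.04) lay below cells 26, 4 and 11. Cells 2, 8 and 17 (143, 52.8 and 87.6) also lay below cell 26, and cell 8 below cell 4. The 2% limit removed cell 27. The pools had 1.46, 47.1, 95.3 and 12.9, highest in pools 2 and 3. Itga6 and Itgb1 were found together in 13 cells, 7 of them endothelial-led (11 cells with the limit), and in all 4 pools.

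Itgb4, which pairs only with Itga6 and anchors epithelia, was found in cells 13 (14.3) and 12 (1.67) and in pools 1 (34.7) and 4 (2.05). Only cell 12 had both Itga6 and Itgb4. The collagen-binding α subunits were scarce. Itga1 was found in endothelial-led cells 6 (13.8) and 8 (4.43) and in pool 2 (6.74). Itga10, whose exons overlap those of Gm42957 over 33.5% of their length, was found in cell 5 (6.37) and Itga11 in cell 28 (8.12), while Itga2 was listed at 0 everywhere. The other laminin-binding α subunits were Itga3, in cells 12 (12.2), 5 (9.63) and 16 (1.08), and Itga7, in cells 11 (90.7) and 5 (2.53).

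The fibronectin-binding subunit Itga5 was found in endothelial-led cells 3 (37.4), 16 (29.9) and 6 (7.22), in cell 5 (4.67), and in pool 3 alone (9.81). Each of the 4 cells also had Itgb1. Itga4, an α subunit that binds fibronectin and the vascular adhesion molecule VCAM1, was low in cells 6 (2.55), 13 (1.95), 5 (1.55) and 3 (1.28). Its exons overlap those of Cerkl on the opposite strand over 8.04% of their length. Itga9 was found in no cell but in pools 1 (2.70) and 2 (3.33). Itga2b, the platelet subunit that pairs with Itgb3, was at 85.8 in cell 16 and 75.4 in cell 10, cells where Itgb3 was not found.

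Itgav, the α subunit that with several β partners binds RGD motifs and activates latent TGF-β, was found in 7 cells and in no endothelial-led cell, where its highest level was 0.316. Cells 12, 13 and 14 had 99.9, 60.8 and 44.5 FPKM, cells 10, 11 and 5 had 26.8, 18.8 and 9.54, and cell 4 had 1.57. These 7 were all the oligodendrocyte-led, astrocyte-led and choroid plexus-led cells and 1 of the 3 ependymal-led cells. All 4 pools had it, at 17, 10.9, 2.63 and 27.6, lowest in pool 3. Itgav with Itgb1 was found in 6 cells, with Itgb5 in cells 5 and 10, and with Itgb8 in cells 10 and 13. Itgb8, the β subunit of the TGF-β-activating receptor of glia, was found in cells 15 (7.96), 9 (5.12), 13 (4.04) and 10 (1.60), 3 of which were the ependymal-led cells. Itgb6, a related epithelial subunit, was low in cells 4 (2.90) and 13 (1.03) and in pool 1 (4.40).

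Itgb5 (ENSMUSG00000022817, chr16:33829665-33949153), a vitronectin receptor subunit with high expression in microglia, had the highest level of any member. The microglia-led cells 19, 20 and 18 had 4456, 1393 and 1225 FPKM. Cell 21, whose leading list changed with the 2% limit, had 36.7. Cell 26, neuroblast-led, had 789, and cells 10, 5 and 9 had 193, 169 and 56.0. The 2% limit removed 7 of its 15 cells (21 to 25, 27 and 28), and the margin against endothelial-led cells then fell to -22.5 points. No member was then found less often by 50 points, against 0.286% of all genes. The pools had 136, 143, 17 and 23.4 FPKM, all above the 8 endothelial-led cells, of which only cell 6 (2.79) was found.

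Itgb2, the leukocyte β subunit, was at 904 FPKM in cell 20 and 681 in cell 18, and at 13.5, 3.33 and 1.77 in cells 19, 21 and 22. With the 2% limit only cells 18 and 20 kept it. No cell outside cells 18 to 22 had it, and cell 3, with 8 of 10 microglial markers, did not. Pool 2, the pool with 10 of 10 microglial markers, had Itgb2 at 18, and the other pools were listed at 0 with 5 to 9 of these markers. Its partner Itgax was at 56.9 in cell 20 and 2 in cell 4. Itgal was at 2.62 in cell 1 and 15.7 in pool 2, and Itgb7 at 7.88 in pool 2 alone. Itgad was at 224 in cell 4 and at 24.7 and 22.4 in pools 1 and 4; its exons overlap 4 other genes. Itgb3 was at 210.4 in cell 18, 15.7 in cell 13 and 1.10 to 1.92 in cells 6, 19 and 20, and the limit removed cells 19 and 20.

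An α and a β integrin subunit were found together in 18 cells. A β subunit without an α subunit was found in 9 cells: cells 9, 15, 18, 19 and 21 to 25. Cell 11 had α subunits and no β subunit, and no cell lacked both. With the 2% limit the counts were 16 cells with both, 5 with a β subunit alone (cells 9, 15, 18, 19 and 25), 2 with an α subunit alone (cells 11 and 28) and 5 with neither (cells 21 to 24 and 27). Itgam, an α partner of Itgb2, was outside the rule and is not in these counts.

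Partner genes were counted from 6 lists of 73 matrix genes, of which 72 were in the table and 64 were found in a cell. Of these, 7 were found more often in endothelial-led cells by at least 50 points (10.9%, against 3.28% of all genes) and 3 less often (4.69%, against 1.62%). The lists were chosen with earlier results of these data known, so the shares of partner genes only describe the lists. Fn1 and Nid1 were counted among the 64 through endothelial-led cells alone, and Ddr1, Mmp14 and Smoc1 through the other cells alone. Fn1, which encodes fibronectin, was found in all 8 endothelial-led cells, from 45.4 through a median of 276 to 405 FPKM, and in none of the other 20, where it reached 0.113 at most. In pools 2 and 3 it was 81.2 and 216, and in pools 1 and 4 it was 0.022 and 0.019. Nid1, the linker between laminin and type IV collagen, was found in 4 and 0 cells, and Parvb and Tns1, integrin adaptors, in 8 and 5 and in 5 and 1. The others were Serpinh1, the collagen chaperone (7 and 6), the laminin receptor Bcam (5 and 2) and the protease Adamts1 (7 and 6). Without cells 18 to 28, 4 of 62 partner genes passed the margin upward (Fn1, Nid1, Parvb and Tns1), which is 6.45% against 2.14% of all genes. Downward, 7 passed (Vtn, Dag1, Ddr1, Sdc2, Sdc4, Mmp14 and Timp2), which is 11.3% against 6.71%.

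Less often found in endothelial-led cells were Ddr1, a collagen receptor kinase (0 of 8 and 12 of 20), Mmp14, a membrane protease (0 and 11), and Smoc1 (0 and 10). With the 2% limit only Ddr1 kept that margin (10 cells), and Mmp14 and Smoc1 were found in 8 cells each. That left 1 of 64 partner genes, against 0.286% of all genes. Sparc, a collagen-binding matrix protein, was found in 22 cells (19 with the 2% limit). It was at 1536 to 5481 FPKM in all endothelial-led cells, above every type IV collagen or laminin value there. Counts by list take the genes found in a cell. The margin upward was passed by 1 of 8 basement membrane genes, 1 of 14 collagen-making genes and 2 of 15 integrin adaptors. It was also passed by 1 of 8 other ligands, 1 of 10 other receptors and 1 of 9 proteases and inhibitors. Over all genes found in a cell the share was 3.28%.

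Cell 5 carried more members than any other cell: 13 collagens, 3 laminins and 9 integrins, 25 in all. Besides the type IV, type VIII and type IX chains above, it was the only cell with Col17a1, Col5a1 and Itga10. It also had the most genes found, 10169, and 7 of 8 choroid plexus markers, with Ttr listed at 0. It had 3 of 8 fibroblast markers, Igf2 at 1246, Ogn at 64.9 and Pdgfra at 8.10, while Dcn and Lum were listed at 0. The part of its high number of genes in its member count was not tested.

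Pools were set against the mean of the 28 cells by the log2 ratio of mean FPKM, with 1 added to either mean (so low genes show less than their true change). Of the 56 members found in a library, 11 were at least 2-fold higher in pools (19.6%, against 12.9% of all 19783 genes found in a library) and 5 at least 2-fold lower (8.93%, against 13.9%). This filter bears on the counts. Of the 56, 5 members passed it only through a pool, and Col6a2, Itga9 and Itgb7 of these are among the 11. Another 6 passed it only through cells, and Itgax of these is among the 5 that were lower. The medians that follow rest on the same filter. The family medians were 0.43 for collagens, 0.52 for laminins and 0.53 for integrins, against 0.064 over all genes. Taking each pool on its own, the medians for pools 1 to 4 were -0.0066, -0.010, -0.24 and 0.51 for collagens, -0.26, 0.81, 1.06 and -0.26 for laminins and -0.13, -0.35, -0.24 and -0.049 for integrins. The collagens and laminins had pools on either side of 0. The integrins lay below 0 in each pool alone although the ratio of the mean of the pools was above 0.

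The members higher in pools rested on few of them. Col6a2 (2.86, SD over pools 2.35), Itgb4 (2.68) and Col17a1 (2.11) followed pool 1, and Itgal (2.21), Itgb7 (1.53) and Lama4 (1.65, SD 2.68) followed pool 2. Without pool 2 the ratio of Lama4 was -0.06. Lamb1 (2.14, SD 1.89) was above the mean of the cells in pools 1, 2 and 4 and listed at 0 in pool 3. Col8a1 and Col8a2 (1.93 each), Itga9 (1.33) and Lamc1 (1.04, SD 1.24) made up the rest.

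Those lower in pools followed single cells of the first library set. Itgb2 (-3.40), Itgb3 (-2.17), Itgb5 (-1.89), Col6a3 (-1.78) and Itgax (-1.56) each had their highest level in cells 18, 19 or 20. Without cells 18 to 28 the ratios of Itgb2, Itgb5 and Col6a3 turned to 2.46, 1.65 and 2.78. In a pool and in no cell, 5 members were found: Col1a1, Col3a1, Col6a2, Itga9 and Itgb7. That is 8.93% of the 56, against 4.69% of all genes.

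**Figure D5:**
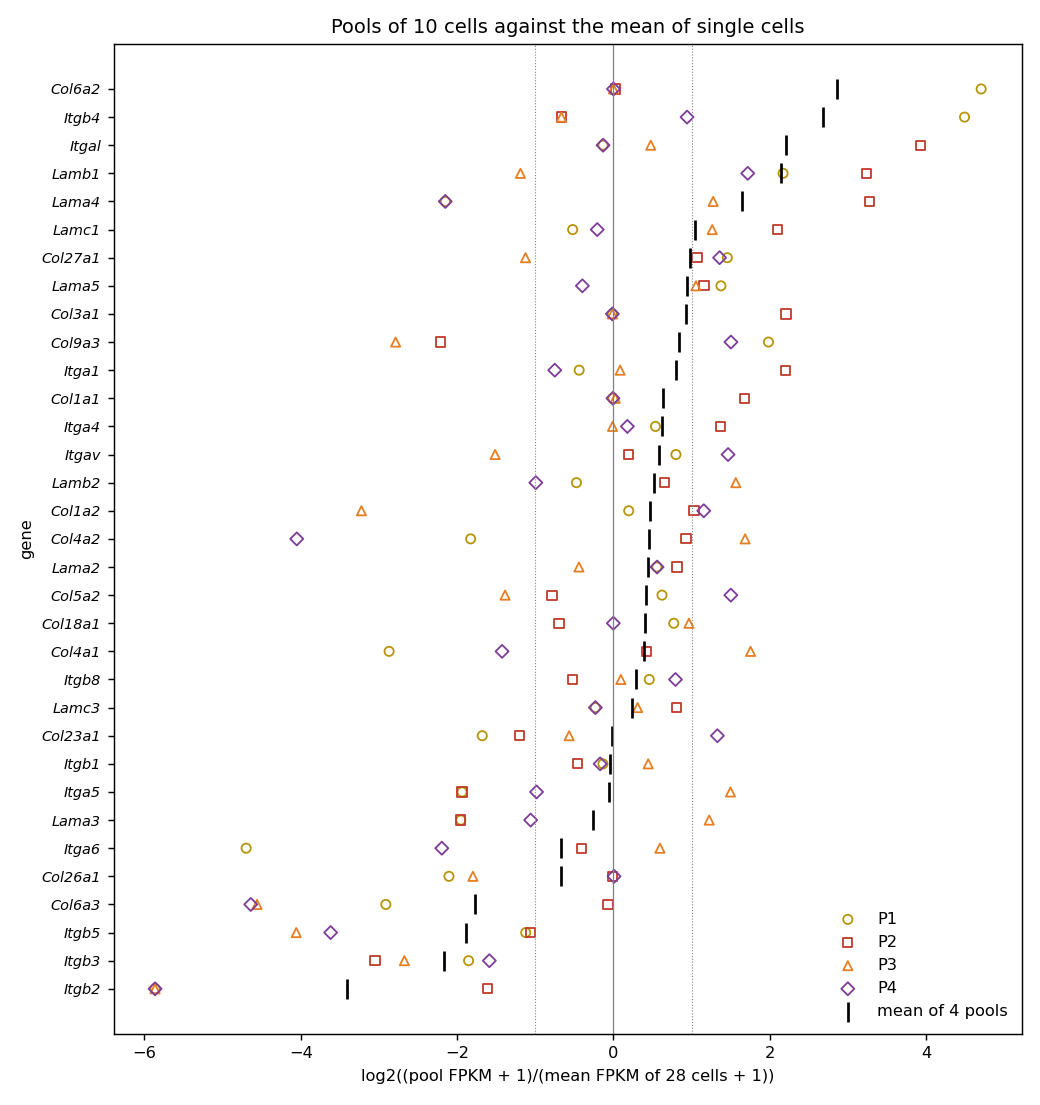
Log2 ratio of each pool to the mean of the 28 cells for 33 named members, ordered by the ratio of the mean of the 4 pools (black bars), with dotted lines at 2-fold. Col6a2 rests on pool 1 and Itgal on pool 2, the 4 pools of Itgb1 lie close to 0, and Itgb2 is lowest, at -3.40.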

How the data were processed

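FPKM was measured for 28 single cells and 4 pools of 10 cells in 1 deposited table. The authors made these FPKM values with TopHat 1.41 and Cufflinks 2.02 on build mm9, per the submitters' processing notes. The loci in the table match GRCm38: 96% of 39011 lines carry a GENCODE M21 gene ID, and 99.7% of those overlap that gene in GRCm38, as did all 80 members. Coordinates are therefore given as GRCm38, counted from 1. Whether strand was used in counting, and which annotation, is not given in the sources used here. An exact 0 can be a failed estimate, and reads of overlapping genes or near-identical copies cannot be told apart.

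Lines of 1 symbol were summed (38740 symbols), after 27 symbols that had been turned into dates were restored from the gene ID. Members and lists were chosen with earlier results of these data known. A gene was found at FPKM of at least 1. Ratios used a pseudocount of 1. Intervals for shares of cells above 0 are exact Clopper-Pearson at 95%. For a share of 0 the limit is instead 3 of 28 cells. No doublet caller was run. No test was made, since cells are not replicates. Depth was read from the step of 1 fragment over 2342 genes of 1 exon and at least 800 bp, assuming fragments of 200 bp.

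The genes always described were 23 chains of known roles, the 3 members found in most cells of each class, and the 4 highest and 4 lowest ratios (34 in all). Other members are named to describe the families, and those were picked out after their values were seen. Alternatives were other limits for found (0.1 and 10), the 2% limit, leaving out cells 18 to 28 or each pool, another pseudocount, means of logs, no filter, 2 rescalings, and the highest line per symbol. Leaving out cell 3, and cells 18, 20 and 21, was added after the data were seen. Not every member is reported by name here. The computations were tested on simulated data. Python 3.11.15, pandas 2.3.3, numpy 2.4.6, scipy 1.17.1 and matplotlib 3.10.9 were used. Promoter windows are from RefSeq (GRCm38.p6).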

Additional observations from a re-analysis of the deposited data

Results flagged for a closer look

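In 6 of the 34 named genes, 1 of the 4 pools lay far from the other pools on the scale of log2(FPKM + 1). Chance meets the rule used in about 1 of 20 groups of values that follow a normal distribution. That rate does not hold where the other pools stand at or near 0, as for Col1a1, Col3a1, Itgb2, Itgal and Col6a2. In pool 2 Col1a1 stood at 2.22, Col3a1 at 3.66, Itgb2 at 18 and Itgal at 15.7 FPKM, each far above the other pools. Col6a2 stood at 25.1 in pool 1, far above the rest, and Col27a1 at 0.283 in pool 3, far below them. Pool 2 was the pool with 10 of 10 microglial markers and with Dcn at 17.9 and Lum at 2.10, and pool 1 had the highest Myh11, at 52.4. The whole lists part these pools less: pool 1 had 9 of 10 microglial markers. Fibroblast markers were 5 of 8 in pool 1 and 4 in pool 2. Pericyte and smooth muscle markers were 7 of 10 in pool 1 and 8 in pool 2. The part of such cells in these values was not tested.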

How the results depend on the processing

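No paired analysis was possible because no test was made and the cells and pools share no replicate numbers that mark a pairing. Of the values recomputed for counts, family medians and chain sets, 164 stayed within bounds (1.5 times for counts of members, the 95% interval for counts of cells, 1 SD for others) and 23 did not. Of those for single named genes, 453 stayed, 49 did not, and 8 changed sign from a log2 ratio of at least 1 in size. The 49 include ratios of Col15a1, which was listed at 0 in every library. Its ratio stayed at 0, but its SD was 0, so the rule counted it as not staying. Smaller ratios that changed sign but moved by less than 1 SD were counted among those that stayed. Without cells 18 to 28 these included Col4a1 (0.385 to -0.302), Col4a2 (0.448 to -0.259) and Lamb2 (0.524 to -0.167). With FPKM of at least 0.1 as found, 2 laminins were found more often in endothelial-led cells and the median cell had 5 integrins. With FPKM of at least 10, Itga6 with Itgb1 was found in 6 cells, and the sets Lama2 with Lamb2 and Lamc1, Itga6 with Itgb4, Itgav with Itgb8 and Itga4 with Itgb1 in 0 cells. The 2% limit gave 2 integrins found more often in endothelial-led cells, and leaving out cells 18 to 28 gave 0. The members at least 2-fold lower in pools, 5 as reported, were 1 without cells 18 to 28, 8 after scaling to the same upper quartile, 0 with means of logs, and 5 to 10 without each pool, the highest without pool 3. Those at least 2-fold higher, 11 as reported, were 23 with a pseudocount of 0.1 and 30 with means of logs. With means of logs the family medians were 1.06 for collagens, 1.68 for laminins and 0.91 for integrins, while the median of all genes moved from 0.064 to 0.955. With no filter they were 0.080 for collagens and 0.28 for integrins, and without each pool 0.13 to 0.65 for integrins. Scaling to the same FPKM sum moved the median of all genes to 0.239. Without cells 18 to 28 the ratios of Itgb2, Itgb5 and Col6a3 turned to 2.46, 1.65 and 2.78. With means of logs those of Itgb2, Itgb5, Itgb3 and Col6a3 turned to 0.11, 2.74, 0.22 and 1.03, and without each pool Lama4 ranged from -0.063 to 2.04, lowest without pool 2. The cause was not tested in any of these. Depth is known only roughly, so a member below FPKM of 1 in a cell was not shown to be absent from it.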
